A study of Mus musculus with 18 samples.

Results

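The CREB, CREM and ATF factors followed here are 6 transcription factors of the basic leucine zipper class (Creb1, Crem, Atf1, Atf2, Atf3 and Cebpb) and the coactivator pair Crebbp and Ep300. They were chosen by name, with earlier results of these data known, as all probe sets annotated to these 8 symbols on either array type. That gave 24 of 45137 probe sets, for 8 of 18194 named genes. Array set A carried 16 of the 24 and array set B carried 8, and Ep300 was on set B alone while Atf1, Atf3 and Cebpb were on set A alone.

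Mouse cortical neurons were cultured for 7 days and then depolarized with potassium chloride (KCl), which opens voltage-gated calcium channels, and total RNA was hybridised to 2 Affymetrix array types with different probe sets. The groups were cultures without KCl (0 h), with 1 h of KCl and with 6 h of KCl, each with 3 arrays per set from 3 independent experiments. No strain, allele or transgene is named for any group. The labels call the cultures both postnatal day 0 and embryonic, and KCl is given as 55 mM for the samples but as 50 mM for the series. No untreated culture at 1 h or 6 h is named, so KCl and the hours passed cannot be told apart.

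CREB1 sits on cAMP response elements in promoters before a stimulus arrives. Calcium entry or cAMP activates kinases that phosphorylate it, and the phosphorylated protein recruits the histone acetyltransferases CBP (Crebbp) and p300 (Ep300), which switches on nearby genes. CREM and ATF1 are its closest relatives, and Crem also has an internal promoter whose product, the inducible repressor ICER, competes for the same elements. An array reads transcript level and not phosphorylation, so it does not see the step at which CREB1 itself is best known to be regulated.

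The cAMP response element has the palindrome TGACGTCA, and its 5-base core is TGACG, or CGTCA on the other strand. Both were searched on both strands, and the core lies inside the palindrome, so every palindrome also counts as a core. RefSeq promoter windows on build GRCm38.p6, from 250 bases before to 50 bases after the start, were at hand for 7 of the 8 members. None was at hand for Crem, so the counts below do not cover it. The palindrome was in the window of 0 of these 7, against 1.79% of all 32851 windows. The core was in 3 of the 7, against 20.8% of all windows: once for Atf1, 90 bases before the start, once for Atf3, 7 bases before it, and 3 times for Cebpb, at 180, 53 and 7 bases before it. In the last 150 bases alone the same 3 genes held it, against 13.3% of all windows. A match describes letters only. The last 150 bases before the start are printed 5′ to 3′ for 3 genes, with the core in capitals. Atf3 and 1 of 2 Cebpb probe sets were higher at both times after KCl. Of 3 tested Crebbp probe sets, 1 was lower at 6 h, and the Crebbp stretch has no core. These genes were picked by their change, and a link between core and change was not tested. Atf1 holds the core but had no call, while Atf2, with 1 probe set higher at 6 h, holds no core.

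Atf3, chr1:191183334-191183483, minus strand: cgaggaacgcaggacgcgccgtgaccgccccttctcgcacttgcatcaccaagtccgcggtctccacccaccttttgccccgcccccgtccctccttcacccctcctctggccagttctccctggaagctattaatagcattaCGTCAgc
Cebpb, chr2:167688765-167688914, plus strand: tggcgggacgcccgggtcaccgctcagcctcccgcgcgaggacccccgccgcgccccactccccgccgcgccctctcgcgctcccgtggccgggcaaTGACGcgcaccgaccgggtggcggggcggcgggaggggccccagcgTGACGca
Crebbp, chr16:4213405-4213554, minus strand: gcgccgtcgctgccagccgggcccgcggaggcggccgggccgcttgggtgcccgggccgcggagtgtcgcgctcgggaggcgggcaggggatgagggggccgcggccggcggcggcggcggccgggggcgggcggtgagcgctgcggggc

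Signals are given on the scale the authors deposited, which is linear and in arbitrary units, in the order of replicates 1, 2 and 3. Differences are on the log2(signal + 16) scale, after quantile normalization on set B, and each adjusted p comes from limma, by Benjamini-Hochberg over all tested probe sets of that array set. A fold change on that scale understates the change of a dim probe set. A probe set counted as above background where it exceeded the level under which 95% of the bacterial control probe sets lay, 74.8 on set A and 369 on set B. Set A arrays had medians of 163 to 196 and set B arrays of 182 to 275. The median spread between arrays of one time was 0.28 on set A and 0.73 on set B (residual SD, log2), so set B could resolve less. With 3 arrays per time, precision is limited throughout.

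Of the 24 member probe sets, 19 were outside the 25% of lowest mean and were tested, 12 on set A and 7 on set B. Being tested does not mean being above background. On set B, Crem 1430847_a_at and Atf2 1437777_at were tested but lay below background on every array. At 1 h against 0 h, 3 of 12 set A member probe sets rose and 0 fell, for Atf3, Crem and Cebpb, where 3.25% of all tested set A probe sets rose and 0.913% fell. At 6 h against 0 h, 5 of 12 rose, for Crem (2 probe sets), Atf3, Cebpb and Atf2, and 1 fell, for Crebbp, where 10.4% of all rose and 11.7% fell. The median difference of the 12 was 0.46 at 1 h and 0.32 at 6 h, against -0.01 and -0.05 over all tested set A probe sets. The 12 include several probe sets each of Atf2, Crem and Cebpb. Members were chosen with earlier results of these data known, so these medians are no independent evidence of a direction. The 1 h and 6 h comparisons share the same 0 h arrays. At 6 h against 1 h, 2 rose and 1 fell, both rises being of Crem and the fall of Crebbp, where 5.07% of all rose and 6.51% fell. Of 7 set B member probe sets, 0 passed at 1 h or 6 h against 0 h, or at 6 h against 1 h. In limma's test without the replicate number, 0 had an unadjusted p under 0.05 in each of these. The share of all set B probe sets called in those comparisons was 0.219%, 5.0% and 2.35%. Blocked by replicate number, since same-numbered set B arrays deviated together, 118, 1470 and 859 of all set B probe sets were called in place of 37, 844 and 397. The same 0 of 7 members was found under every alternative processing of set B that was run.

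**Figure D1:**
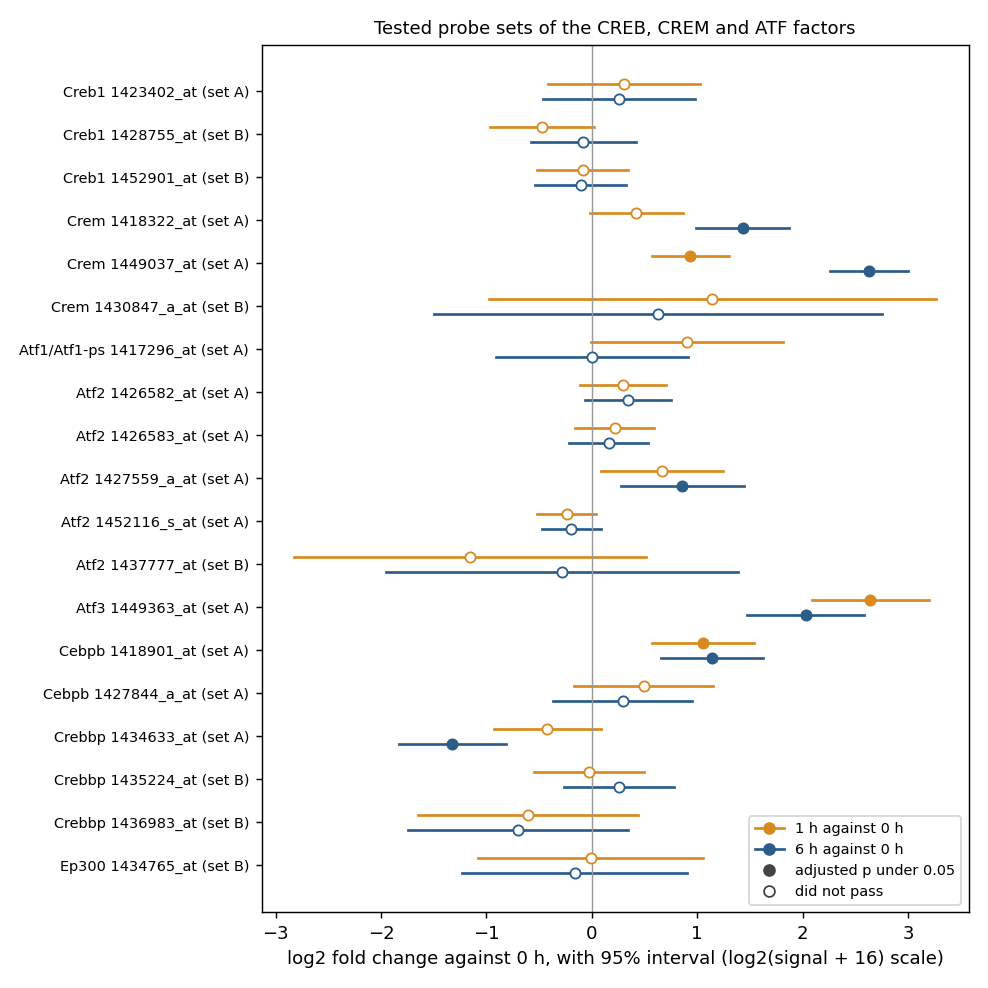
Log2 difference (dot, filled where it passed) with its 95% interval (line) for each of the 19 tested member probe sets at 1 h and at 6 h against 0 h. Crem 1449037_at and Atf3 lie farthest to the right, Crebbp 1434633_at is the 1 call to the left, and the intervals of set B probe sets all cross 0.

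Crem transcripts were the members that climbed through both intervals. Probe set 1449037_at read 163.2, 162.6 and 222.6 at 0 h, 324.1, 401.6 and 359.7 at 1 h, and 1147.3, 1270.6 and 1194.0 at 6 h. No array of one time overlapped another time, and the means were 183 ± 34.5, 362 ± 38.8 and 1204 ± 62.3 (SD, n = 3 each). Crem rose at 1 h, with a log2 difference of 0.93 ± 0.17 (SE, 95% interval 0.57 to 1.30, adjusted p = 0.00959, 1.91-fold). At 6 h the log2 difference from 0 h was 2.63 ± 0.17 (adjusted p = 9.67e-07, 6.19-fold), and that of 6 h from 1 h was 1.70 ± 0.17 (adjusted p = 6.23e-05, 3.24-fold).

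The other tested Crem probe set on set A, 1418322_at, was flatter. Its signals were 140.7, 156.8 and 169.3 at 0 h, 248.3, 167.6 and 233.9 at 1 h, and 484.4, 404.6 and 451.6 at 6 h. The 6 h arrays stood clear of the rest, while at 1 h replicate 2 lay within the 0 h range. Its 1 h difference did not pass (0.42 ± 0.20, interval -0.02 to 0.87, adjusted p = 0.274). It rose at 6 h against 0 h by 1.43 ± 0.20 (2.70-fold, adjusted p = 0.000394) and at 6 h against 1 h by 1.01 ± 0.20 (2.01-fold, adjusted p = 0.00727). Over the 9 set A arrays the log2 signals of the 2 probe sets had a Pearson r of 0.950. Which Crem transcripts each probe set reads, activator or ICER, is not given in the sources used here. The third Crem probe set on set A, 1430598_at, was too dim to test, at 2.6 to 30.3 on all arrays. The 1 on set B, 1430847_a_at, was below background on all 9 arrays (0.3 to 309.4), and its 1 h and 6 h differences of 1.14 ± 0.98 and 0.63 ± 0.98 say little.

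Atf3, a factor that cells make after stress or calcium entry and that often represses its targets, had a different time course. Probe set 1449363_at read 31.0, 50.1 and 35.9 at 0 h, 404.7, 303.6 and 276.2 at 1 h, and 201.2, 220.4 and 198.0 at 6 h. All 0 h arrays were below background, every 1 h and 6 h array was above it, and the means were 39.0 ± 9.92, 328 ± 67.7 and 207 ± 12.1 (SD, n = 3 each). Against the background level, Atf3 was at least 3.74-fold higher at 1 h than at 0 h (fitted log2 difference 2.64 ± 0.26, adjusted p = 5.92e-05). It was at least 2.45-fold higher at 6 h than at 0 h (2.03 ± 0.26, adjusted p = 0.00017). The 6 h arrays all lay below the 1 h arrays, but the difference of -0.61 ± 0.26 did not pass (adjusted p = 0.152).

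Cebpb encodes C/EBPβ, a zipper factor that can pair with ATF family members. Probe set 1418901_at read 119.5, 100.3 and 160.6 at 0 h, 300.8, 268.1 and 262.9 at 1 h, and 251.6, 351.0 and 287.0 at 6 h. All arrays after KCl stood above all 0 h arrays, and 1 h and 6 h overlapped. Cebpb rose 2.08-fold at 1 h (log2 1.06 ± 0.22, interval 0.57 to 1.54, adjusted p = 0.0201) and 2.20-fold at 6 h (1.14 ± 0.22, adjusted p = 0.00313), and 6 h against 1 h was 0.08 ± 0.22 (adjusted p = 0.868). The 1 h call was lost without 0 h replicate 1 (adjusted p = 0.0705), 0 h replicate 2 (0.0741), 1 h replicate 1 (0.0683) or 1 h replicate 3 (0.0644), with log2 differences of 0.92 to 1.09. The second Cebpb probe set, 1427844_a_at, gave 120 ± 32.3, 175 ± 44.8 and 151 ± 46.7 at 0, 1 and 6 h, with overlapping arrays and no call (0.49 ± 0.30 at 1 h, 0.29 ± 0.30 at 6 h). Its intervals, -0.17 to 1.15 and -0.37 to 0.95, hold the estimate of the other probe set at 1 h but not at 6 h. The interval of the other at 6 h, 0.66 to 1.62, overlaps with them, so a difference between the 2 probe sets is not shown.

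**Figure D2:**
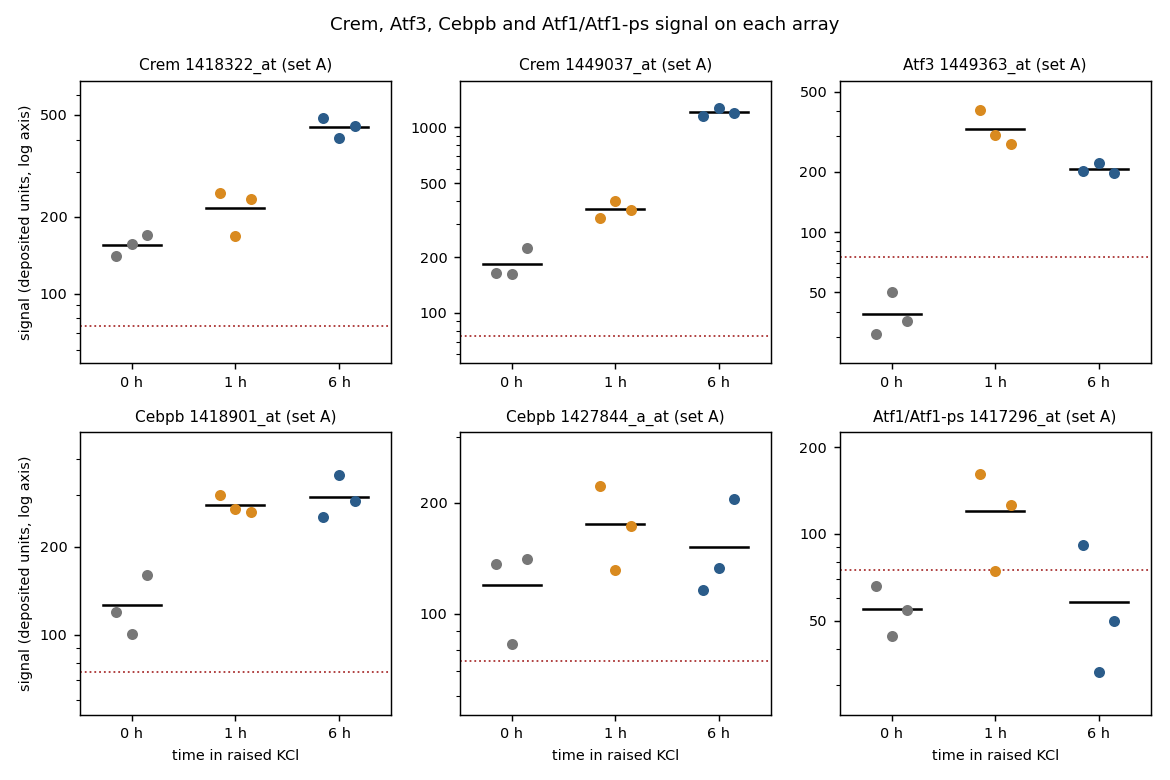
Signal per array (points, log axis) at 0, 1 and 6 h for the tested set A probe sets of Crem, Atf3, Cebpb and Atf1, with the mean of each time (bar) and the background level (dotted). Crem 1449037_at climbs at each step to 1204 at 6 h, Atf3 is highest at 1 h, and Cebpb 1418901_at holds a plateau near 277 to 297.

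Creb1 itself, the factor that the pathway is named for, had 3 tested probe sets and 0 calls. The set A probe set, 1423402_at, averaged 112 ± 29.8, 140 ± 13.4 and 143 ± 63.9 at 0, 1 and 6 h, with log2 differences of 0.31 ± 0.33 at 1 h and 0.26 ± 0.33 at 6 h. On set B, 1428755_at read 2594.3, 3480.8 and 3045.2 at 0 h, 1831.0, 2211.1 and 2240.7 at 1 h, and 3209.6, 2152.1 and 2613.3 at 6 h. All 1 h arrays were below all 0 h arrays, yet the difference did not pass (-0.47 ± 0.23, interval -0.96 to 0.02, adjusted p = 0.871), and at 6 h it was -0.08 ± 0.23. Blocked by replicate number, the SE at 1 h was 0.17, and the difference did not pass in that limma fit either (adjusted p = 0.35). The other, 1452901_at, averaged 1595 ± 306, 1468 ± 165 and 1440 ± 395, with a 6 h interval of -0.54 to 0.33. Those set B intervals exclude a doubling of the signal of these 2 probe sets at either time, a log2 rise of 1. The interval of the set A probe set at 1 h, -0.41 to 1.03, does not exclude it, and that at 6 h, -0.46 to 0.98, barely does. Probe sets 1421582_a_at, 1421583_at and 1452529_a_at were below background on all arrays and were not tested.

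Atf1, the closest relative of Creb1 beside Crem, had 1 probe set, 1417296_at, which is also annotated to the pseudogene Atf1-ps, so the 2 cannot be told apart. It read 65.9, 44.4 and 54.4 at 0 h, 160.7, 74.2 and 126.0 at 1 h, and 91.5, 33.1 and 50.0 at 6 h. The 0 h arrays and 3 others were below background, and the 1 h arrays stood above all 0 h arrays. The 1 h difference of 0.90 ± 0.42 did not pass (interval -0.01 to 1.81, adjusted p = 0.26), and that at 6 h was 0.00 ± 0.42.

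Atf2, which stress-activated kinases phosphorylate and which binds the same element with Jun proteins, was read by 4 set A probe sets that differed among themselves. Probe set 1427559_a_at read 308.3, 163.6 and 416.6 at 0 h, 385.7, 431.7 and 544.0 at 1 h, and 511.0, 477.5 and 563.0 at 6 h. The 6 h arrays stood above all 0 h arrays, and 0 h replicate 2 was far below its fellows. It rose 1.81-fold at 6 h (log2 0.86 ± 0.27, interval 0.28 to 1.44, adjusted p = 0.0364), the weakest member call: it was lost in 8 of 17 alternatives. Without 0 h replicate 2 the difference was 0.51 (adjusted p = 0.116); without 0 h replicate 1 it was 0.93 (0.0615). Without 6 h replicate 1, 2 or 3 it was 0.87 (adjusted p = 0.0846), 0.91 (0.0728) and 0.80 (0.112).

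The brighter Atf2 probe sets did not pass. Probe set 1452116_s_at averaged 1087 ± 70.1, 923 ± 103 and 946 ± 13.4 at 0, 1 and 6 h, with its 1 h and 6 h arrays all below the 0 h arrays. Its 6 h difference was -0.20 ± 0.13 (adjusted p = 0.327), and the interval of -0.48 to 0.08 lies below that of 1427559_a_at. Probe sets 1426582_at and 1426583_at differed at 6 h by 0.34 ± 0.19 and 0.16 ± 0.17, and the set B probe set 1437777_at was below background on all 9 arrays (-1.16 ± 0.77 at 1 h, -0.28 ± 0.77 at 6 h). Over the 9 arrays 1426582_at had an r of 0.911 with 1427559_a_at and of -0.002 with 1452116_s_at.

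The coactivators bind phosphorylated CREB1 and acetylate histones. Crebbp probe set 1434633_at on set A read 366.4, 334.3 and 275.3 at 0 h, 268.0, 219.9 and 227.0 at 1 h, and 159.6, 118.2 and 89.9 at 6 h. Each time lay wholly below the one before it. The 1 h difference did not pass (-0.42 ± 0.23, adjusted p = 0.352), and at 6 h Crebbp signal fell to 123 ± 35.0, against 325 ± 46.2 at 0 h (SD, n = 3 each; log2 -1.32 ± 0.23, interval -1.83 to -0.81, adjusted p = 0.00167). It also fell at 6 h against 1 h (-0.90 ± 0.23, adjusted p = 0.0262). That call was lost after quantile normalization (-0.80, adjusted p = 0.0504) and without 1 h replicate 1 (-0.82, 0.0836), 1 h replicate 3 (-0.93, 0.0603), 6 h replicate 2 (-0.89, 0.0786) or 6 h replicate 3 (-0.72, 0.102).

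The Crebbp probe sets on set B did not show this fall. Probe set 1435224_at read 2262.1, 1762.8 and 1212.6 at 0 h, 2119.1, 1093.7 and 1907.5 at 1 h, and 2308.1, 1549.6 and 1860.7 at 6 h. The 3 times overlapped, and the 6 h difference of 0.26 ± 0.24 had an interval of -0.26 to 0.78, which excludes the -1.32 of the set A probe set. Probe set 1436983_at differed by -0.70 ± 0.48 at 6 h (interval -1.74 to 0.34, adjusted p = 0.624), which spans both. The last, 1459804_at, was below background on all arrays and not tested. The fall is thus a reading of 1 Crebbp probe set out of 3 tested.

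Ep300 had 1 probe set, 1434765_at on set B. It read 2550.2, 1353.4 and 1352.5 at 0 h, 2023.4, 794.2 and 2804.8 at 1 h, and 2000.0, 667.0 and 2207.2 at 6 h. Arrays of one time lay far apart and the times overlapped. The differences were -0.01 ± 0.49 at 1 h and -0.16 ± 0.49 at 6 h, with intervals of -1.08 to 1.06 and -1.23 to 0.91, and replicate 2 was low at both times after KCl. Blocked by replicate number, the SE was 0.31 and neither difference passed (adjusted p = 0.996 and 0.849).

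**Figure D3:**
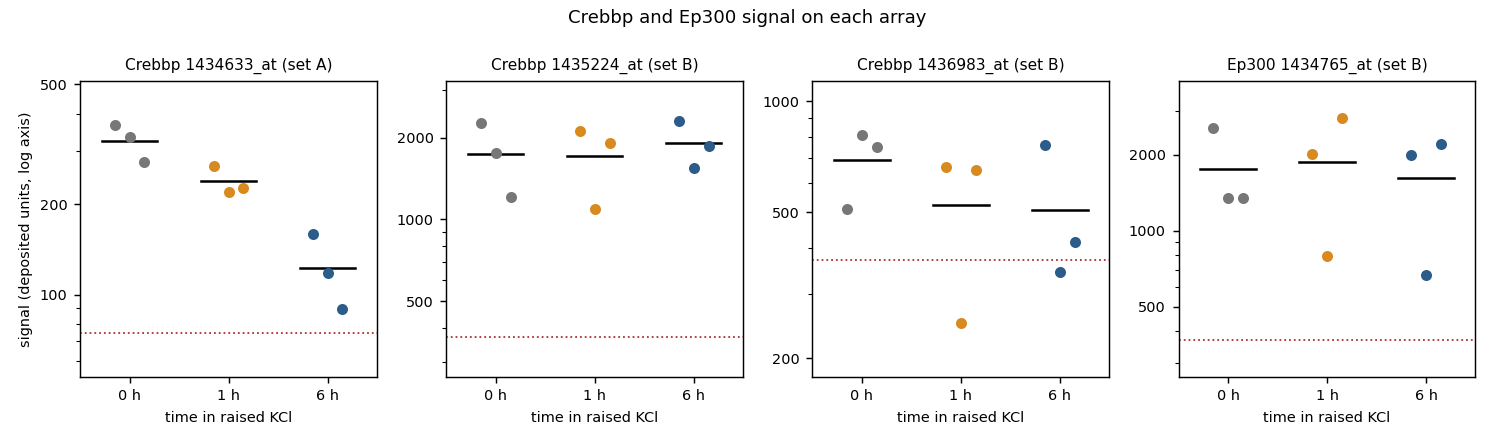
Signal per array (points, log axis) at 0, 1 and 6 h for the tested Crebbp and Ep300 probe sets, with the mean of each time (bar) and the background level (dotted). Crebbp 1434633_at on set A steps down to 123 at 6 h, while Crebbp 1435224_at and Ep300 on set B overlap between all 3 times.

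Measures of RNA and of cell make-up moved with time as well. On set A the 5′ to 3′ signal ratio of Actb was 0.391 ± 0.122 at 0 h, 0.669 ± 0.0496 at 1 h and 0.574 ± 0.0204 at 6 h, and that of Gapdh was 0.859 ± 0.195, 1.17 ± 0.103 and 1.21 ± 0.0427 (SD, n = 3 each). With the Gapdh ratio as a covariate, Atf3 kept both calls and both Crem probe sets kept the 6 h call. Crem 1449037_at at 1 h (0.64, adjusted p = 0.571), Cebpb at 1 h (0.67, 0.695) and 6 h (0.71, 0.302), Atf2 1427559_a_at at 6 h (0.09, 0.929) and Crebbp 1434633_at at 6 h (-1.05, 0.166) lost theirs. The ratio was itself lower on average at 0 h than later, so RNA quality and time cannot be told apart by this fit. The SE also grew, from 0.22 to 0.32 for Cebpb 1418901_at at 1 h and from 0.23 to 0.38 for Crebbp 1434633_at at 6 h. The summed signal of 7 measured astrocyte markers was 20262 to 20801 at 0 h, 14377 to 16862 at 1 h and 12845 to 14866 at 6 h, and that of 12 neuronal markers 45264 to 48002, 47269 to 52016 and 52130 to 55925. All 19 had a mean above background at each time, so markers of the labelled neurons were present. A sum is carried by its brightest markers. Tested singly over both sets by the brightest probe set, of 8 astrocyte markers 1 fell at 1 h and 3 at 6 h, and 0 rose. Of 13 neuronal markers 2 rose and 0 fell at 1 h, and 4 rose and 1 fell at 6 h. Of all genes, 1.10% rose and 0.689% fell at 1 h, and 6.11% rose and 10.5% fell at 6 h. The marker counts depended on the probe set. By that of smallest p, 2 astrocyte markers fell at 1 h, and 2 fell and 1 rose at 6 h. Of neuronal markers 5 then rose at 1 h, and 7 rose and 1 fell at 6 h. The sum of 6 oligodendrocyte-lineage markers, all above background, was 6501 to 9092 at 0 h, 5510 to 7444 at 1 h and 6192 to 8014 at 6 h. That of 7 microglial markers was 907 to 1345, 942 to 1279 and 806 to 1098, with Cx3cr1 below background at 6 h. That of 9 vascular and fibroblast markers was 824 to 863, 872 to 992 and 654 to 837, with 6, 5 and 3 of them above background and Pdgfrb and Tek below it throughout. Their part in the member results was not tested. In bulk RNA, fewer cells of a type and less RNA per cell cannot be told apart.

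Genes whose log2 signals ran most like a changed member over the 9 set A arrays were ranked by Pearson r, which the shared times alone can make high. For Crem 1449037_at they were Pcdh8, a protocadherin (r = 0.997), Arpp21 (0.993), the poly(A) polymerase Papola (0.991), Ppp1r2 and Wls. For Atf3 they were the small Maf factor Maff (0.992), the MAP kinase phosphatases Dusp1 (0.985) and Dusp6, the CBP-binding Cited2 (0.977) and the receptor Met. For Cebpb 1418901_at they were Ptprk (0.978), Syt9, Zfand5, Zc3h15 and Hnrnpab (0.971). For Atf2 1427559_a_at they were Snx6 (0.991), Gadd45gip1, Isoc1, Qk and Pkp4 (0.970). For Crebbp 1434633_at they were Limd2 (0.993), Tnip1 (0.992), Diras1, Ptcd3 and Fbf1 (0.982). Among members, Crem 1449037_at and Crebbp 1434633_at ran opposite ways (r = -0.954), and Atf3 and Cebpb 1418901_at ran together (r = 0.891).

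The rest of the pathway was read with 1 probe set per gene. Of 16 measured further CREB and ATF family factors and CREB coactivators, 1 rose at 1 h and 0 fell, where 1.10% of all 15232 genes rose and 0.689% fell. At 6 h 2 rose and 1 fell, where 6.11% of all rose and 10.5% fell. The median difference was -0.04 at 1 h and 0.06 at 6 h, against -0.05 and -0.09 over all genes. Atf4, a factor of the integrated stress response, averaged 2317 ± 454, 5615 ± 330 and 5911 ± 216 at 0, 1 and 6 h. It rose at 1 h (1.29 ± 0.14, adjusted p = 0.000164) and at 6 h (1.36 ± 0.14, adjusted p = 3.67e-05). Creb3, a membrane-bound relative, rose at 6 h (0.67 ± 0.12, adjusted p = 0.00176), though none of its 3 other probe sets did. Crtc1, the calcium-regulated CREB coactivator, fell at 6 h on set B (-0.89 ± 0.22, adjusted p = 0.0411), while its 2 other probe sets did not pass. Atf5 (-0.53, adjusted p = 0.0858) and Crtc3 (0.75, 0.121) did not pass at 1 h, nor Creb3l2 (0.64, 0.0661) and Crebzf (0.47, 0.0923) at 6 h.

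Of 8 measured C/EBP factors and partners, 1 rose at 1 h and at 6 h 1 rose and 1 fell, with medians of 0.01 and -0.13. Of all genes, 1.10% rose and 0.689% fell at 1 h, and 6.11% rose and 10.5% fell at 6 h. Nfil3, a zipper repressor, rose at both times (2.79 ± 0.21, adjusted p = 4.62e-06, and 3.46 ± 0.21, adjusted p = 5.17e-07). Tef, of the PAR zipper group, fell at 6 h (-0.46 ± 0.13, adjusted p = 0.0221), against 1.23 for its other probe set, which did not pass. At 1 h Tef (-0.38, adjusted p = 0.122) and Dbp (-0.30, 0.613) did not pass, nor at 6 h Cebpg (0.55, 0.081) and Cebpd (-0.59, 0.274). Of 19 measured other acetyltransferases, CBP and p300 partners and deacetylases, 1 rose at 1 h, and at 6 h 1 rose and 2 fell (medians -0.03 and -0.04). The 2 falls of 19 are near the 10.5% of all genes that fell at 6 h. Cited2, which binds CBP and p300, rose at both times (1.57 ± 0.12, adjusted p = 6.9e-06, and 1.61 ± 0.12, adjusted p = 3.94e-06). The acetyltransferase Kat2a fell at 6 h (-1.45 ± 0.18, adjusted p = 0.000175), as did 1 of its 2 other probe sets. Ncoa1, a nuclear receptor coactivator, fell too (-0.85 ± 0.17, adjusted p = 0.004), while its 2 other probe sets did not pass. At 1 h Kat2a (-0.54, adjusted p = 0.121) and Taf4 (0.64, 0.171) did not pass, nor at 6 h Taf1 (0.65, 0.0759) and Hdac1 (-0.39, 0.098).

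Of 32 measured kinases, cyclases, channels and phosphatases upstream of CREB, 5 rose and 0 fell at 1 h, and 9 rose and 8 fell at 6 h (medians 0.03 and 0.05). Of all genes, 1.10% rose and 0.689% fell at 1 h, and 6.11% rose and 10.5% fell at 6 h. Sik1, a kinase that keeps CRTC coactivators out of the nucleus, rose at 1 h (2.0 ± 0.21, adjusted p = 0.000156) and at 6 h (0.86 ± 0.21, adjusted p = 0.0115). Prkar2a, a regulatory subunit of protein kinase A, rose at 1 h (0.89 ± 0.23, adjusted p = 0.0463) and 6 h (2.19 ± 0.23, adjusted p = 4.12e-05), and of its 3 other probe sets 0 rose at 1 h and 2 at 6 h. At 0 h, 1 of 3 arrays was below background for Prkar2a, Adcy8 and Camk2d. The calcium-stimulated cyclase Adcy8 rose at 1 h (1.01 ± 0.25, adjusted p = 0.0433) and 6 h (1.85 ± 0.25, adjusted p = 0.000289). The calcineurin subunit Ppp3cb rose at 1 h (0.84 ± 0.16, adjusted p = 0.0126), with 0 of its 4 other probe sets. Camk2d (1.38 ± 0.31, adjusted p = 0.00694) and, on set B, Sik3 (1.37 ± 0.20, adjusted p = 0.00169) rose at 6 h. Rps6ka5, a CREB kinase, fell at 6 h on set B (-1.84 ± 0.25, adjusted p = 0.00107), as did Camk2a (-1.19 ± 0.31, adjusted p = 0.0491) and, on set A, Camk2g (-1.10 ± 0.20, adjusted p = 0.00219). The 2 other probe sets of Rps6ka5, the 4 of Camk2a and the 1 of Camk2g (-0.54) did not pass. At 1 h Rps6ka5 (-0.78, adjusted p = 0.446) and Camk1d (-0.55, 0.108) did not pass, nor at 6 h Camkk2 (-0.80, 0.054) and Ppp1cc (0.29, 0.0757).

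Of 34 measured genes known as CREB targets in neurons, 19 rose and 0 fell at 1 h and 20 rose and 0 fell at 6 h, with medians of 1.44 and 1.15, also with genes below background set at their bound. The shares of all genes were 1.10% up and 0.689% down at 1 h, and 6.11% up and 10.5% down at 6 h. At 6 h against 1 h, 7 of them rose and 11 fell, where 3.97% of all genes rose and 5.79% fell. The list was written with earlier results of these data known and is no independent evidence of its direction. It shares Sik1 with the upstream list and Nfil3 with the C/EBP list, so their rises are counted in both. The early factor Npas4 was below background on all 3 arrays at 0 h, and its set B signal averaged 32423 ± 8084 at 1 h and 11519 ± 4062 at 6 h (SD, n = 3 each). Against the background level on the deposited scale that was at least 82.4-fold higher at 1 h (adjusted p = 2.2e-07) and at least 28.5-fold higher at 6 h (adjusted p = 9.2e-07) than at 0 h. Fos rose by log2 6.58 at 1 h and 3.91 at 6 h. Junb (6.37) and Fosb (5.74) rose at 1 h, against 0 h means of 72.7 ± 15.6 and 66.1 ± 24.4, each with 1 of 3 arrays at 0 h below background, so these sizes rest on dim 0 h signals. The prohormone convertase Pcsk1 did not pass at 1 h (1.47, adjusted p = 0.0685) and rose at 6 h (5.01, adjusted p = 9.62e-06), with 2067 ± 148 at 6 h, against a dim 59.5 ± 41.9 at 0 h with 1 of 3 arrays below background. The neurotrophin Bdnf did not pass at 1 h (1.10, adjusted p = 0.0785), where its 1 other probe set rose (1.97), and rose at 6 h on both (3.39, adjusted p = 2.41e-05, and 5.21), and the G-protein regulator Rgs2 rose at 6 h (4.34, adjusted p = 4.4e-08). At 6 h, Cartpt (0.76, adjusted p = 0.0523) and Vip (0.75, 0.0605) did not pass.

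**Figure D4:**
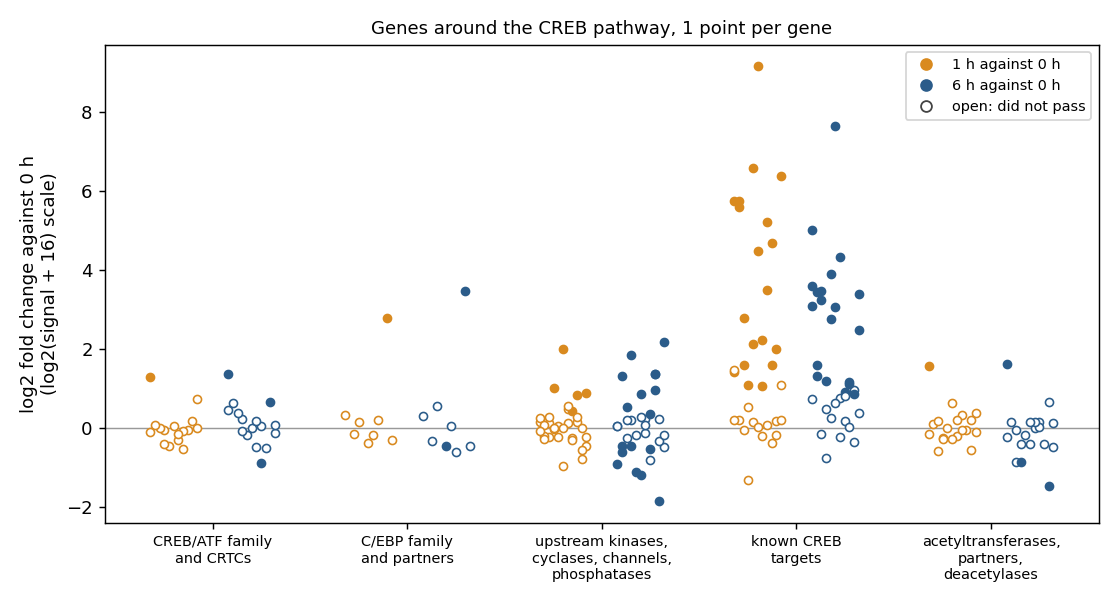
Log2 difference from 0 h at 1 h and at 6 h for each measured gene of the 5 pathway lists (points, filled where the gene passed the test), as fitted. For Npas4, Arc, Crh, Nr4a3, Creb5 and Cebpa, below background on every array at 0 h, the fitted size is no bound. Of these, only Npas4 and Arc had a call. The CREB target list has medians of 1.44 at 1 h and 1.15 at 6 h, while the medians of the other 4 lists lie between -0.13 and 0.06.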

How the data were processed

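Total RNA of 18 samples (9 arrays per set, 3 per time) was measured. The authors deposited linear intensity values, 1 for each probe set and array, and how scans were corrected and summarised is not given in the sources used here. On set B the 3 arrays numbered 1 hold 27.4% to 28.0% values below 0 and the others none. Negative values became 0, and log2 was taken after adding 16. Set A kept its scale (array medians within 0.239 log2) and set B, whose medians spread by 0.557, was quantile normalized. The 64 control probe sets and the 25% of lowest mean were left out per set, which left 16969 probe sets on set A and 16883 on set B. Each set was fitted in limma 3.58.1 (R 4.3.3, with statmod 1.5.0, and data.table in version 1.17.8) as a means model of 3 times over 9 arrays, with an intensity trend. The p-values are two-sided, adjusted by Benjamini-Hochberg within set and contrast, with a threshold of 0.05. Figures used Python 3.11.15 and matplotlib 3.10.9. The fit was tested on simulated data.

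Each list gene was read through its brightest tested probe set, with set A preferred. All members are named, and of each list up to 4 rises, 3 falls and 2 genes that did not pass per contrast against 0 h, with the 5 most like genes per changed member. Members and lists were chosen with earlier results of these data known. Same-numbered arrays deviated together on set B (r = 0.15 to 0.476 in all 9 pairs). The highest r, 0.446 to 0.476, were those of the arrays numbered 1, which alone hold values below 0. For the other numbers r was at most 0.207. Whether the numbers stand for shared experiments or for shared processing was not tested. The fits above leave the number out on both sets, and a fit with it as a block was run beside them. On set A r was 0.0181 to 0.174. Levels were not compared between sets. Alternatives were the added constant, scaling, dim filter, trend, robust moderation, replicate block, Gapdh ratio and leaving out each array.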

Additional observations from a re-analysis of the deposited data

Results flagged for a closer look

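For 3 probe sets the effect at 6 h differed from that at 1 h, both against the same 0 h arrays, by the test of 6 h against 1 h in limma. The log2 difference of 6 h from 1 h was 1.70 ± 0.17 for Crem 1449037_at (adjusted p = 6.23e-05) and 1.01 ± 0.20 for Crem 1418322_at (adjusted p = 0.00727), both larger at 6 h. For Crebbp 1434633_at it was -0.90 ± 0.23 (adjusted p = 0.0262), lower at 6 h. No group held the 4 arrays that a check for single outlying arrays needs.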

How the results depend on the processing

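Of the 12 member calls, 6 held in all 17 alternatives: both Atf3 calls against 0 h, and both Crem probe sets at 6 h against 0 h and against 1 h. No call reversed in direction, and of 45 results that did not pass, 1 did so in an alternative (Atf2 1427559_a_at at 1 h without 0 h replicate 3, 0.95, adjusted p = 0.0407). Counts of called probe sets moved more. With the Gapdh ratio as covariate, member calls on set A were 1 in place of 3 at 1 h and 3 in place of 6 at 6 h against 0 h, and calls over all probe sets 64 in place of 707 and 584 in place of 3753. Without an intensity trend 265 of set A were called at 1 h. On set B the calls at 1 h, 6 h and 6 h against 1 h were 37, 844 and 397. They were 15, 443 and 97 on the deposited scale, 5, 127 and 4 after median scaling, and 5, 150 and 12 without a trend. With the replicate block they were 118, 1470 and 859. With the Gapdh ratio the first 2 were 4 and 123, and without the 3 arrays numbered 1 the first was 20. Higher against lower calls on set B at 1 h were 30 to 7, 14 to 1 on the deposited scale and 5 to 0 after median scaling. Leaving out 1 array gave 277 to 1308, 2606 to 3902 and 1030 to 2149 calls on set A in the 3 comparisons, and 7 to 69, 205 to 823 and 75 to 431 on set B; member calls were 2 to 4, 5 to 6 and 2 to 3 on set A. The replicate block changed no member call. On set A the numbers were not treated as pairing. The cause of these shifts was not tested. Set B signals spread widely between arrays, so for Ep300, Crem, Atf2 and Crebbp 1436983_at there, changes as large as some called on set A could have gone undetected.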
